A study of Mus musculus with 6 samples.

Results

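The genes of glucose transport, glycolysis, lactate and pyruvate handling, and glycogen metabolism were examined in hind limb muscle of mice lacking Baf155. A list of 39 genes was chosen by gene symbol for these roles, and all 39 were found among the 20632 genes of the deposited table. RNA came from whole, unexercised hind limb muscle (TA, EDL, GA, SOL and Q combined) of 3 Baf155WT and 3 Baf155ΔMF male mice aged 3 months on a C57BL/6 background (C57BL/6J in the study's methods), with 1 library per mouse. Both genotypes carried the floxed *Baf155* alleles (*Baf155* f/f), and Baf155ΔMF mice carried in addition the *MCK*-Cre transgene, which is driven by the muscle creatine kinase promoter and is also active in the heart. Baf155 is a core subunit of the SWI/SNF chromatin remodelling complex and is encoded by *Smarcc1*. The question was whether its loss in muscle alters transcripts of energy metabolism.

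Glycolysis splits glucose into pyruvate and yields ATP without oxygen. Muscle takes up glucose through GLUT4, traps it by hexokinase, and stores it as glycogen, which glycogen phosphorylase releases again during contraction. Fast muscle fibres rely most on this route and send much of their pyruvate to lactate, whereas slow fibres oxidize more of it in mitochondria. Several steps have an isoform that is specific to muscle beside an isoform that most cells use. Many glycolytic genes are known targets of HIF-1α, a transcription factor stabilized by low oxygen that binds DNA at the cores ACGTG and GCGTG.

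Total counts were between 10601293 and 12469335 in Baf155WT mice and between 8426022 and 10003421 in Baf155ΔMF mice. At these depths the floor of 3 counts corresponded to 0.23 to 0.351 CPM (counts per 1000000 after TMM scaling), which covers counting error only. The targeted transcript *Smarcc1* was at 23.4, 19.5 and 17.0 CPM in Baf155WT muscle and at 7.05, 6.54 and 7.72 CPM in Baf155ΔMF muscle, so every library matched its label. Defining skeletal muscle transcripts (*Acta1*, *Ckm*, *Ttn*, *Des*, *Mb* and *Mylpf*) summed to between 108281 and 142822 CPM in the 6 mice. The sample titles begin with MS13, MS14 or MS15, and what these prefixes mean is not stated. Baf155WT mouse 1 and Baf155ΔMF mice 1 and 2 carry MS13, Baf155WT mice 2 and 3 carry MS15, and Baf155ΔMF mouse 3 carries MS14. On the first principal component (43.3% of the variance) the MS15 mice lay at 25.0 and 22.5, Baf155WT mouse 1 lay at -13.4, and the Baf155ΔMF mice lay at -17.1, -15.4 and -1.56. Outside MS13 each prefix belongs to 1 genotype, so that prefix and genotype cannot be separated there, and results that move with Baf155WT mouse 1 are also given without it.

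The promoters of 2 isoform pairs and of *Ppp1r3c* are shown first. They span 250 bases before to 50 bases after the RefSeq start on GRCm38.p6, and capitals mark matches on either strand to the HIF cores named above, to a TATA box (TATAAA) or to the MEF2 motif. The phosphoglycerate mutase genes *Pgam2* (muscle) and *Pgam1* (most cells) are shown because they encode isoforms of 1 enzyme at very different levels.

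*Pgam2* (chr11:5803747-5804046, minus strand): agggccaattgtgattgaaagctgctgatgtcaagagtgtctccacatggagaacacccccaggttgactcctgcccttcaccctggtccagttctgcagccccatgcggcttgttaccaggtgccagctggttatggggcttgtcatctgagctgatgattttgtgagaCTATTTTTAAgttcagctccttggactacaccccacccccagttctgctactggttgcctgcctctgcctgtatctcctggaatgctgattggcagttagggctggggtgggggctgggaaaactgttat

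*Pgam1* (chr19:41911621-41911920, plus strand): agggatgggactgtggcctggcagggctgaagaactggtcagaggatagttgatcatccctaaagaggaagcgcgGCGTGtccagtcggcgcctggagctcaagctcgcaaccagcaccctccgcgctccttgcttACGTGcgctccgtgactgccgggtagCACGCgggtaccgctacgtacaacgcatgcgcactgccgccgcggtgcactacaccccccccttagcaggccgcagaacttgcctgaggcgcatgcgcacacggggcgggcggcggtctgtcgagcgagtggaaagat

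The *Pgam2* window held a MEF2 match 80 bases before the start, no ACGTG and no GCGTG, and its CpG frequency was 0.0469 of the expected value. The *Pgam1* window held 1 ACGTG and 2 GCGTG matches, with a CpG ratio of 0.948. The enolase genes form a second such pair and are shown for the same reason, with *Eno1* also being among the members with the smallest p-values.

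*Eno3* (chr11:70656926-70657225, plus strand): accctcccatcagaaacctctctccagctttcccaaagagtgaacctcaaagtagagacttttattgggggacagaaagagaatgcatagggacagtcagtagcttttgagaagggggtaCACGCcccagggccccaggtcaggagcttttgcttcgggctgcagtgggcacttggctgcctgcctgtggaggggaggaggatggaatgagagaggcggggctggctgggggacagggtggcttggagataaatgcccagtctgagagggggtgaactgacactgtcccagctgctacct

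*Eno1* (chr4:150236458-150236757, plus strand): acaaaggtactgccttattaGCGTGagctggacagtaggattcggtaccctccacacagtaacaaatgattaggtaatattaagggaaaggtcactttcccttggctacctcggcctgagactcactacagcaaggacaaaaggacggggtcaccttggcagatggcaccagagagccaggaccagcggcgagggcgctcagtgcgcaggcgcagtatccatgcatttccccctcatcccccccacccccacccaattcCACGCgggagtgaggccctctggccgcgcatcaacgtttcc

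In *Eno3*, the muscle enolase, 1 GCGTG match was present and the CpG ratio was 0.128. *Eno1*, the enolase of most cells, had 2 GCGTG matches and a CpG ratio of 0.58. The promoter of *Ppp1r3c* is shown because this gene, a subunit that brings protein phosphatase 1 to glycogen, had the smallest p-value of the 39.

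*Ppp1r3c* (chr19:36736555-36736854, minus strand): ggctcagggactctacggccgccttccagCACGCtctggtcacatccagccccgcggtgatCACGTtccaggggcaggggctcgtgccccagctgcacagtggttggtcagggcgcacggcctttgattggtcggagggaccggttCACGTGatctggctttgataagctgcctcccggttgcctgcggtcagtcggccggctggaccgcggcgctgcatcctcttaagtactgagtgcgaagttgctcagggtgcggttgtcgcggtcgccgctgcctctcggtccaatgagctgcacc

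It held 3 ACGTG matches, of which 2 overlapped in a single palindrome CACGTG, and 1 GCGTG match, with a CpG ratio of 0.813. Promoter windows were found for 37 members, all except *Slc2a4* and *Gpd1*. For each member 1 window was used, at the RefSeq start nearest the beginning of the gene. The 32851 windows set beside them include all RefSeq starts without that choice, so the 2 sets are not fully alike. ACGTG occurred in 15 of the 37 (40.5%) and in 19.6% of all 32851 windows of this length, and GCGTG occurred in 19 (51.4%) and in 32.4% of all windows. The member windows also had a higher median GC content (62% against 52.7%) and a higher median CpG ratio (0.695 against 0.384), and the part of this composition in the shares was not tested. TATAAA was present in 2 members (5.41%, against 13.6% of all windows), *Ppp1r3a* and *Slc2a1*. The MEF2 motif was present in *Pgam2* and *Ppp1r3a* (5.41%, against 3.19%). These matches describe the letters of each window and say nothing of binding.

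Together the 39 members took 5.23%, 5.44% and 5.74% of all counts in the Baf155WT mice and 4.84%, 4.89% and 5.48% in the Baf155ΔMF mice. The means were 5.47 ± 0.258% and 5.07 ± 0.355% (SD, n = 3), a difference of -0.396 percentage points with p = 0.3 in a two-sided exact permutation test, in which 3 mice against 3 cannot give a p-value below 0.1. With 1 mouse left out the difference ran from -0.26 points (without Baf155WT mouse 3) to -0.60 points (without Baf155ΔMF mouse 3). Per kilobase of transcript, *Aldoa*, aldolase A, was the highest in Baf155WT muscle at 9040 ± 448 CPM per kb. It was followed by *Gapdh* at 4613 ± 115, the enolase *Eno3* at 3099 ± 302, the glycogen phosphorylase *Pygm* at 2159 ± 38.0 and *Pgam2* at 1902 ± 226 CPM per kb. *Pygm* and *Pgam2* differed by slightly less than the sum of their SDs, whereas the gaps above them were larger. *Pkm*, *Tpi1*, *Pfkm* and *Ldha* followed at 1319 ± 49.5, 1233 ± 123, 1106 ± 119 and 1060 ± 97.8 CPM per kb, and no neighbours among these 4 differed beyond their SDs. These 9 genes held between 78.8% and 81.2% of the counts of all 39 members in each mouse. The lowest were isoforms not specific to muscle, with *Slc2a1* at 3.45 ± 0.488, *Hk1* at 2.86 ± 0.329, *Pfkl* at 2.83 ± 0.147 and *Pfkp* at 2.52 ± 0.388 CPM per kb. *Pfkl* and *Hk1* did not differ beyond their spread. This order depends on the transcript length used. With all annotated exons of a gene merged as its length, an alternative chosen after seeing the data, *Aldoa* was at 4692 and *Eno3* at 2787 CPM per kb, and *Gapdh*, at 1585, came after *Pygm* (1928) and *Pgam2* (1902).

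None of the 39 members passed an adjusted p of 0.05 in the comparison of genotypes (edgeR's quasi-likelihood test), where 0.0248% of the 12116 genes tested did, and none passed it with DESeq2 (0.182% of genes) or with limma after voom. All 39 passed the filter on low counts. Their adjusted p-values were between 0.601 and 0.995. At an unadjusted p under 0.05 there were 2 members, both with lower values in Baf155ΔMF muscle, which is 5.13% of the members beside 7.95% of all genes tested (4.6% in the lower direction). The log2 fold changes, given throughout as Baf155ΔMF over Baf155WT, ran from -0.43 for *Ppp1r3c* to 0.63 for the inducible regulator *Pfkfb3*. Their median was -0.037, beside -0.00095 for all genes tested, and 24 members (61.5%) were below 0, beside 50.2% of all genes. The mean log2 CPM over the members was 8.41 ± 0.0724 in Baf155WT and 8.41 ± 0.0349 in Baf155ΔMF muscle. In 35 of 39 members the 95% interval of the fold change lay within 1.5-fold in either direction. The 4 exceptions were *Hk2*, *Pfkfb3*, *Pgam1* and *Ppp1r3c*, whose intervals reached past that limit on 1 side. Whether RNA per cell or the number of fibres of a type differed cannot be told apart in these bulk samples.

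**Figure D1:**
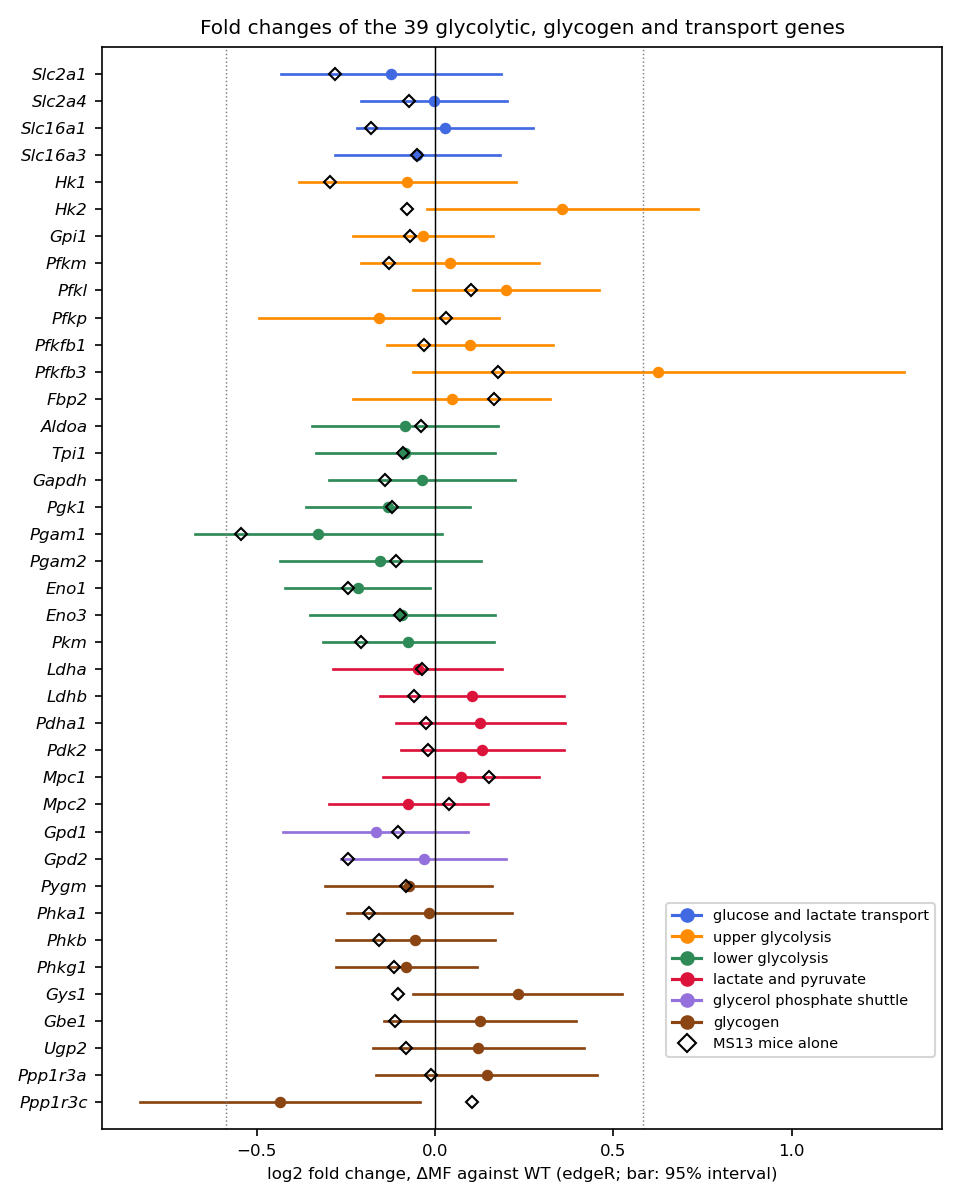
Log2 fold changes of the 39 members, Baf155ΔMF over Baf155WT, on the horizontal axis, with 1 row per gene and colours for the roles. Filled points are edgeR estimates from 3 mice per genotype, bars are 95% intervals, open diamonds are the MS13 mice alone (1 Baf155WT, 2 Baf155ΔMF, no test) and dotted lines mark 1.5-fold. Of the 39 intervals, 35 stay between the dotted lines, and those of *Ppp1r3c* and *Eno1* lie below 0.

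The genotypes did not overlap in 3 members (7.69%, beside 10.8% of all genes tested), 1 of them higher (5.2% of all genes) and 2 lower (5.57%) in Baf155ΔMF muscle. *Pfkl*, the liver form of phosphofructokinase, was higher in all Baf155ΔMF mice, with 11.2, 10.1 and 10.4 CPM in Baf155WT and 11.6, 12.4 and 12.4 CPM in Baf155ΔMF muscle (log2 fold change 0.20, standard error 0.12, adjusted p = 0.653 from edgeR). *Eno1* was lower in all of them, at 51.8, 50.9 and 55.2 CPM against 41.9, 45.6 and 48.5 CPM. *Pygm* was lower as well, at 6311, 6213 and 6093 CPM against 6024, 5911 and 5761 CPM, a gap of only -0.07 on the log2 scale (adjusted p = 0.849).

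Transport was described by 4 genes, none of which had an unadjusted p under 0.05. *Slc2a4* encodes GLUT4, the transporter that insulin and contraction bring to the surface of muscle fibres. Its expression was 587, 582 and 576 CPM in Baf155WT and 558, 559 and 626 CPM in Baf155ΔMF muscle, a fold of 0.998 with a 95% interval from 0.866 to 1.15. The Baf155ΔMF mice lay on both sides of the Baf155WT mice. *Slc2a1* encodes GLUT1, the basal glucose transporter of most cells. It was at 12.5, 11.7 and 9.46 CPM against 10.9, 9.76 and 10.3 CPM (log2 fold change -0.12, standard error 0.14). Of the lactate carriers, *Slc16a3* encodes MCT4, which exports lactate from fast fibres, and *Slc16a1* encodes MCT1, which is typical of oxidative fibres. *Slc16a3* was at 267, 295 and 294 CPM against 263, 253 and 313 CPM, and *Slc16a1* was at 91.6, 84.7 and 71.9 CPM against 75.3, 86.5 and 91.3 CPM. Both ranges overlapped, with folds of 0.967 (95% interval 0.824 to 1.13) and 1.02 (0.859 to 1.21). The median log2 fold change of the 4 genes was -0.025, it ran from -0.087 to 0.010 with 1 mouse left out, and within MS13 its value was -0.13.

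The upper steps of glycolysis, from hexokinase to the control of fructose bisphosphate, held 9 members with a median log2 fold change of 0.048, and 6 were above 0. The median was 0.14 without Baf155WT mouse 1, 0.016 without Baf155WT mouse 2, -0.015 with library size only and -0.030 between the MS13 mice alone. *Hk2*, the hexokinase of insulin-responsive tissues, was at 416, 267 and 249 CPM in Baf155WT and 432, 356 and 406 CPM in Baf155ΔMF muscle. Baf155WT mouse 1 thus lay inside the range of the Baf155ΔMF mice, and the MS15 mice lay below all others. This amounted to a log2 fold change of 0.36 with a standard error of 0.17 (adjusted p = 0.622, edgeR). *Pfkfb3*, the inducible enzyme that makes fructose 2,6-bisphosphate, an activator of phosphofructokinase, was the most variable member. It was at 260, 123 and 104 CPM against 284, 303 and 163 CPM, so that the highest Baf155WT mouse exceeded the lowest by 2.49-fold. Its log2 fold change of 0.63 had a standard error of 0.31 (adjusted p = 0.622). *Pfkfb1*, the form of liver and muscle, was at 44.3, 38.4 and 37.5 CPM against 39.6, 47.1 and 41.7 CPM.

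*Pfkm*, the muscle phosphofructokinase and the main control step of glycolysis, was at 3582, 2972 and 3003 CPM against 3377, 3183 and 3284 CPM. All 3 Baf155ΔMF mice lay between Baf155WT mouse 1 and the MS15 mice. Its fold was 1.03, with a 95% interval from 0.866 to 1.23. *Pfkp*, the platelet form, was at 8.65, 10.9 and 11.8 CPM against 8.76, 8.93 and 10.5 CPM, with a log2 fold change of -0.16 (standard error 0.15). *Hk1*, the hexokinase of most tissues, was at 12.1, 9.64 and 11.2 CPM against 9.72, 10.1 and 11.5 CPM. The isomerase *Gpi1* and the muscle fructose bisphosphatase *Fbp2*, which runs the opposite way to phosphofructokinase, had log2 fold changes of -0.03 and 0.05.

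The lower steps of glycolysis, from aldolase to pyruvate kinase, also held 9 members, and all 9 had log2 fold changes below 0, with a median of -0.091. With 1 mouse left out the median ran from -0.15 to -0.056, with 8 of the 9 below 0 without Baf155WT mouse 3 or Baf155ΔMF mouse 1. Their mean log2 CPM was 10.17, 10.15 and 10.30 in Baf155WT mice and 9.980, 10.003 and 10.23 in Baf155ΔMF mice, so Baf155ΔMF mouse 3 lay within the Baf155WT range. *Aldoa* was at 12928, 13784 and 14265 CPM against 12449, 12696 and 13549 CPM (log2 fold change -0.08, standard error 0.12). *Gapdh*, which makes the first reducing equivalents of the route, was at 6609, 6366 and 6677 CPM against 5924, 6080 and 7150 CPM, and the MS14 mouse was the highest of the 6. *Eno3*, the muscle enolase, was at 4695, 4470 and 5377 CPM against 4357, 4420 and 4873 CPM. *Pkm*, pyruvate kinase, was at 3348, 3136 and 3143 CPM against 2917, 2888 and 3338 CPM. In each of these 4 genes the genotypes overlapped, and the folds lay between 0.939 for *Eno3* and 0.975 for *Gapdh*. *Tpi1* and *Pgk1*, the triosephosphate isomerase and the first ATP-making kinase, had log2 fold changes of -0.08 and -0.13.

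The lowest fold changes of these steps belonged to isoforms not specific to muscle. *Eno1* had a log2 fold change of -0.22 (standard error 0.09, 95% interval -0.42 to -0.01, unadjusted p = 0.0396, adjusted p = 0.611 from edgeR), with no overlap between genotypes. Its deposited estimate was not a whole number in 1 mouse, so a small part of its reads may have been shared with another gene. *Pgam1* was at 22.3, 21.8 and 23.4 CPM against 15.6, 15.1 and 23.4 CPM. Both MS13 Baf155ΔMF mice lay below all others, whereas the MS14 mouse was as high as the highest Baf155WT mouse. The fitted log2 difference was -0.33 with a standard error of 0.16 (adjusted p = 0.622, edgeR), and it was -0.55 without Baf155ΔMF mouse 3 and -0.21 without Baf155ΔMF mouse 2. *Pgam2* was at 1434, 1554 and 1806 CPM against 1314, 1343 and 1655 CPM (log2 fold change -0.15, standard error 0.13). Across the 12089 genes with a length, log2 fold changes and transcript length had a Spearman correlation of 0.331. The 39 members had shorter transcripts than all genes tested (median 2725 against 3118 bases). Transcripts of the 9 genes of these steps were all below both medians, from 840 bases for *Pgam2* to 2432 bases for *Pkm*. After the length trend was removed the median of the 9 genes was -0.042, and 8 were below 0.

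**Figure D2:**
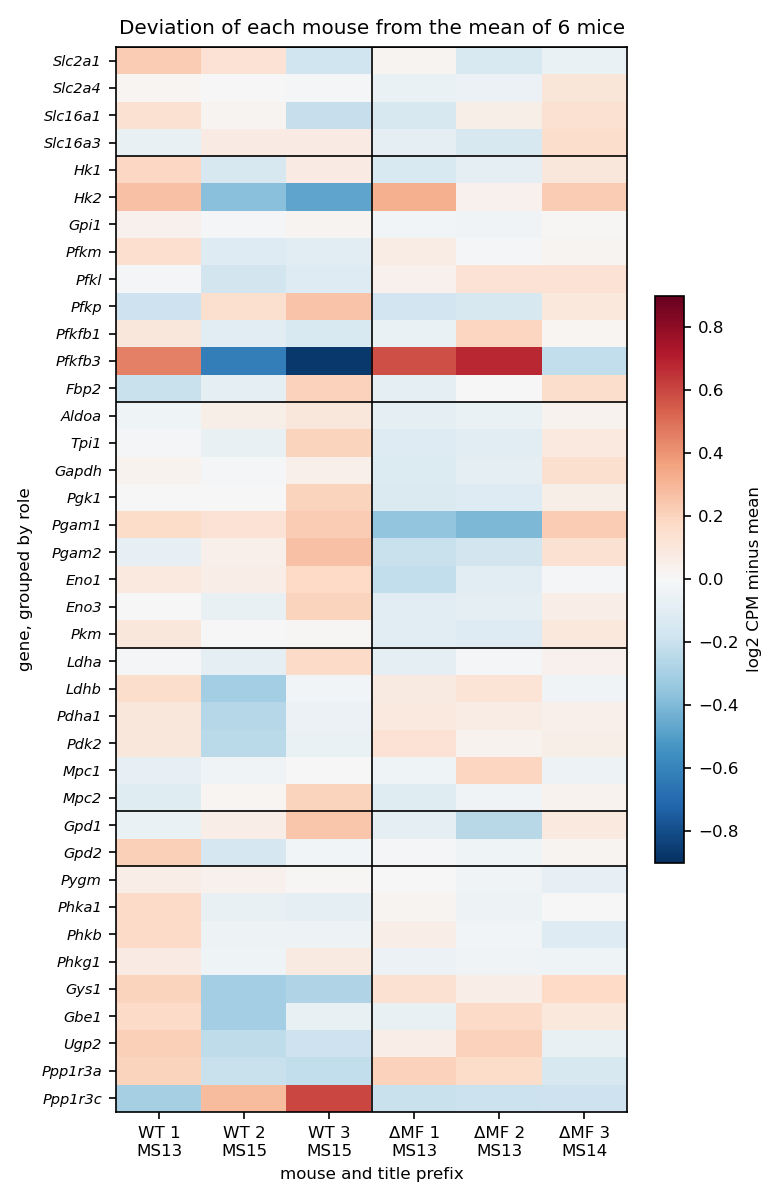
Deviation of log2 CPM from the mean of the 6 mice, with 1 row per gene, lines between the 6 roles, and 1 column per mouse named with its title prefix. Red is above and blue below the mean. The deepest colours are in *Pfkfb3*, from -0.87 in Baf155WT mouse 3 to 0.68 in Baf155ΔMF mouse 2, and the Baf155ΔMF MS13 columns are blue through the lower glycolysis rows.

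The 6 genes of lactate and pyruvate had a median log2 fold change of 0.089 and adjusted p-values from 0.713 to 0.906. That median was 0.14 without Baf155WT mouse 1, 0.016 without Baf155WT mouse 2, 0.028 with library size only and -0.023 between the MS13 mice alone. *Ldha*, the lactate dehydrogenase subunit that prevails in fast muscle, was at 1815, 1736 and 2067 CPM in Baf155WT and 1730, 1812 and 1891 CPM in Baf155ΔMF muscle. Its fold was 0.967, with a 95% interval from 0.82 to 1.14. *Ldhb*, the subunit of heart and oxidative fibres, was at 122, 87.9 and 107 CPM against 115, 118 and 106 CPM (log2 fold change 0.10, standard error 0.12). *Pdha1*, a subunit of the pyruvate dehydrogenase that feeds pyruvate into oxidation, and *Pdk2*, the kinase that inhibits it, had log2 fold changes of 0.13 each. *Pdk2* was at 248, 196 and 222 CPM against 253, 237 and 240 CPM, and *Pdha1* was at 594, 463 and 534 CPM against 587, 580 and 570 CPM. In both genes the Baf155ΔMF mice lay close together and near Baf155WT mouse 1. The mitochondrial pyruvate carrier genes *Mpc1* and *Mpc2* had log2 fold changes of 0.07 and -0.07. The glycerol phosphate shuttle, which moves reducing equivalents from the cytosol to mitochondria, gave -0.17 for *Gpd1* and -0.03 for *Gpd2*.

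Glycogen metabolism held 9 members, of which 4 were above and 5 below 0 (median -0.015). Without Baf155WT mouse 1 the median was 0.076 and 3 were below 0, and within MS13 it was -0.10, with 8 below 0. *Ppp1r3c*, which brings protein phosphatase 1 to glycogen and so favours synthesis, was at 326, 489 and 608 CPM in Baf155WT and 351, 351 and 353 CPM in Baf155ΔMF muscle. The Baf155ΔMF mice were within 1.01-fold of each other, while the Baf155WT mice spanned 1.86-fold on both sides of them. On the log2 scale the difference was -0.43 with a standard error of 0.18 (95% interval -0.83 to -0.04, unadjusted p = 0.0335, adjusted p = 0.601, edgeR). It was -0.21 without Baf155WT mouse 3, and within MS13 it came to 0.10. *Gys1*, the glycogen synthase of muscle, was at 375, 264 and 269 CPM against 358, 339 and 369 CPM (log2 fold change 0.23, standard error 0.13, adjusted p = 0.643). Its highest value was that of Baf155WT mouse 1, and the MS15 mice were again the lowest.

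*Ppp1r3a*, the main glycogen-targeting subunit of striated muscle, was at 1445, 1098 and 1080 CPM against 1454, 1413 and 1139 CPM. *Ugp2*, which makes the UDP-glucose for synthesis, was at 1031, 759 and 780 CPM against 923, 1027 and 846 CPM, and the branching enzyme *Gbe1* had a log2 fold change of 0.13. Among the synthesis genes, *Gys1*, *Ppp1r3a*, *Ugp2* and *Gbe1* were each lowest in an MS15 mouse, whereas *Ppp1r3c* was lowest in Baf155WT mouse 1. On the side of breakdown, the phosphorylase kinase subunits *Phka1*, *Phkb* and *Phkg1*, which switch glycogen phosphorylase on, had log2 fold changes of -0.02, -0.05 and -0.08, beside -0.07 for *Pygm* itself.

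**Figure D3:**
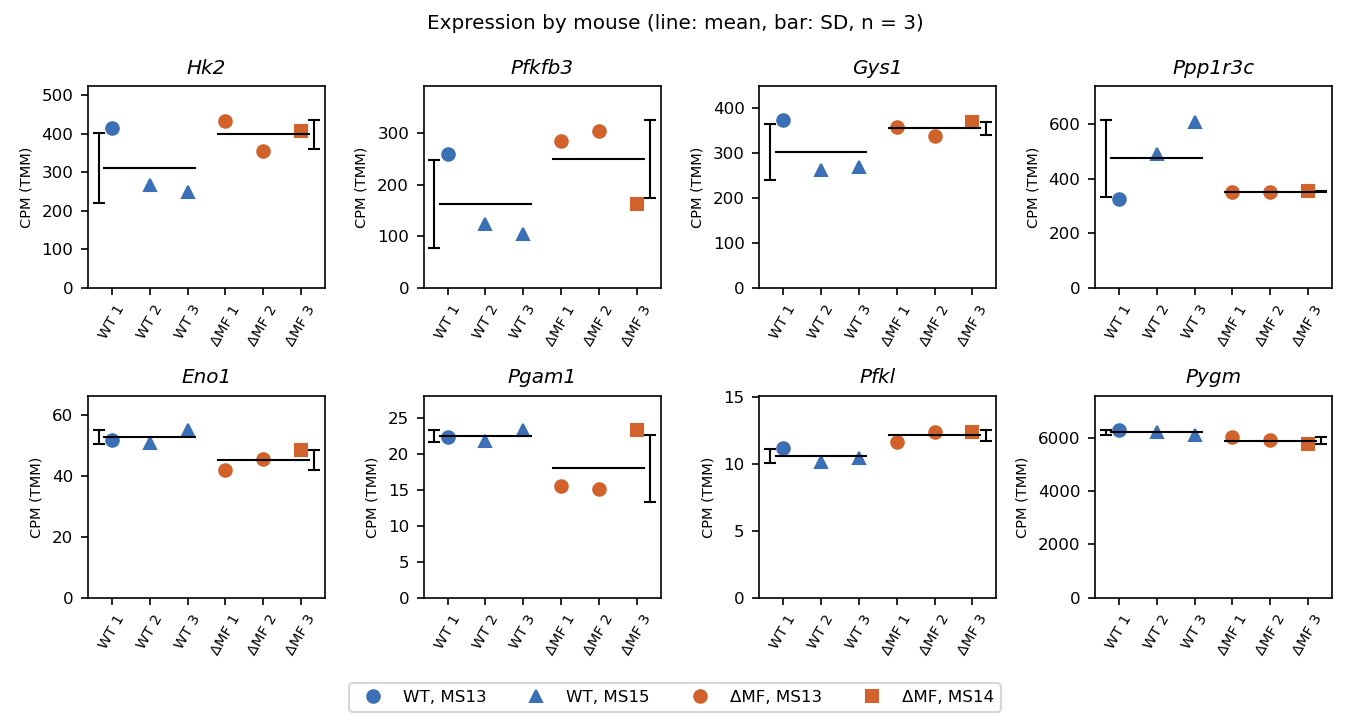
TMM-normalized CPM of 8 members in each of the 6 mice, on axes that start at 0. Points are mice (blue Baf155WT, orange Baf155ΔMF, with a shape for each title prefix), lines are means and bars are SD (n = 3). In *Hk2*, *Pfkfb3*, *Gys1* and *Ppp1r3c* the MS13 Baf155WT mouse lies closer to the Baf155ΔMF mean than either MS15 mouse does.

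Several values rested on Baf155WT mouse 1. It lay within the range of the Baf155ΔMF mice in 17 members (43.6%, beside 56.9% of all genes tested), and both MS15 mice lay beyond the other 4 mice in 14 members (35.9%, beside 34.6%). Without Baf155WT mouse 1, 4 members passed an adjusted p of 0.05 in edgeR (10.3%, beside 7.77% of the 12288 genes then tested), 3 of them higher (3.6% of genes) and 1 lower (4.17%), and 12 members had an unadjusted p under 0.05 (beside 23.8%). They were *Hk2* (log2 fold change 0.63, adjusted p = 0.00239), *Pfkfb3* (1.14, adjusted p = 0.00318), *Gys1* (0.42, adjusted p = 0.012) and *Ppp1r3c* (-0.64, adjusted p = 0.00194). That comparison sets 2 MS15 mice against Baf155ΔMF mice of other prefixes, so prefix and genotype cannot be told apart in it. With any other single mouse left out, these 4 genes had no adjusted p under 0.05, and their log2 fold changes fell as low as 0.22 for *Hk2* (without Baf155WT mouse 3), 0.39 for *Pfkfb3* (without Baf155WT mouse 3) and 0.14 for *Gys1* (without Baf155WT mouse 2). Among the MS13 mice alone, with 1 Baf155WT and 2 Baf155ΔMF mice and therefore no test, the log2 fold changes of *Hk2*, *Pfkfb3*, *Gys1* and *Ppp1r3c* were -0.08, 0.18, -0.10 and 0.10. In those mice 32 of the 39 members (82.1%, beside 49.2% of all genes tested) were below 0, with a median of -0.081 beside 0.0034. All 32 values share the same single Baf155WT library. Spread between mice was also uneven, and the highest mouse exceeded the lowest by more in Baf155WT than in Baf155ΔMF muscle for 29 of 39 members (74.4%, beside 56.9% of the genes with counts in every mouse).

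Isoform pairs were compared as the log2 ratio of counts within each mouse, which does not depend on scaling, and 9 ratios were computed. The muscle isoform was the higher of the pair in every mouse for 8 ratios. Per kilobase, *Pfkm* exceeded *Pfkp* by 438-fold and *Pfkl* by 386-fold in Baf155WT muscle, *Pgam2* exceeded *Pgam1* by 149-fold and *Eno3* exceeded *Eno1* by 119-fold. In Baf155ΔMF muscle these folds were 498, 347, 170 and 130. *Slc2a4* exceeded *Slc2a1* by 66.8-fold and 72.0-fold, and *Ldha* exceeded *Ldhb* by 13.2-fold and 11.8-fold. The carriers *Slc16a3* and *Slc16a1* were closer, at 3.54-fold and 3.34-fold. *Pfkfb1* was the exception, at 0.715 and 0.473 of *Pfkfb3* per kilobase. These folds depend on the length used, and with merged exons those of Baf155WT muscle were 1221 for *Pfkm* over *Pfkp*, 596 for *Pfkm* over *Pfkl*, 166 for *Pgam2* over *Pgam1*, 284 for *Eno3* over *Eno1* and 8.46 for *Ldha* over *Ldhb*.

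None of the 9 ratios passed the exact permutation test, whose smallest possible p is 0.1. That smallest value was reached by *Hk2*/*Hk1* alone, with log2 ratios of counts of 5.09, 4.78 and 4.46 in Baf155WT and 5.46, 5.13 and 5.13 in Baf155ΔMF mice. The difference was 0.46, every Baf155ΔMF mouse was above every Baf155WT mouse, and between the MS13 mice alone it was 0.21. The *Pfkm*/*Pfkl* ratio differed by -0.15 (exact p = 0.2), *Eno3*/*Eno1* by 0.13 (exact p = 0.2) and *Pgam2*/*Pgam1* by 0.19 (exact p = 0.3). *Ldha*/*Ldhb*, the subunits of fast and of oxidative muscle, had log2 ratios of 3.90, 4.30 and 4.27 in Baf155WT and 3.91, 3.94 and 4.15 in Baf155ΔMF mice. Its difference was -0.16 (exact p = 0.4), and between the MS13 mice alone 0.02. *Pfkm*/*Pfkp*, *Slc2a4*/*Slc2a1* and *Slc16a3*/*Slc16a1* differed by 0.19, 0.11 and -0.08, with exact p-values of 0.5, 0.5 and 0.8. For *Pfkfb1*/*Pfkfb3* the difference was -0.60 (exact p = 0.2). Without Baf155WT mouse 1 the differences were 0.62 for *Hk2*/*Hk1*, 0.40 for *Pfkm*/*Pfkp*, -0.29 for *Ldha*/*Ldhb* and -0.92 for *Pfkfb1*/*Pfkfb3*. In the same mice *Pgam2*/*Pgam1* differed by 0.12, *Slc2a4*/*Slc2a1* by 0.029 and *Slc16a3*/*Slc16a1* by -0.21.

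**Figure D4:**
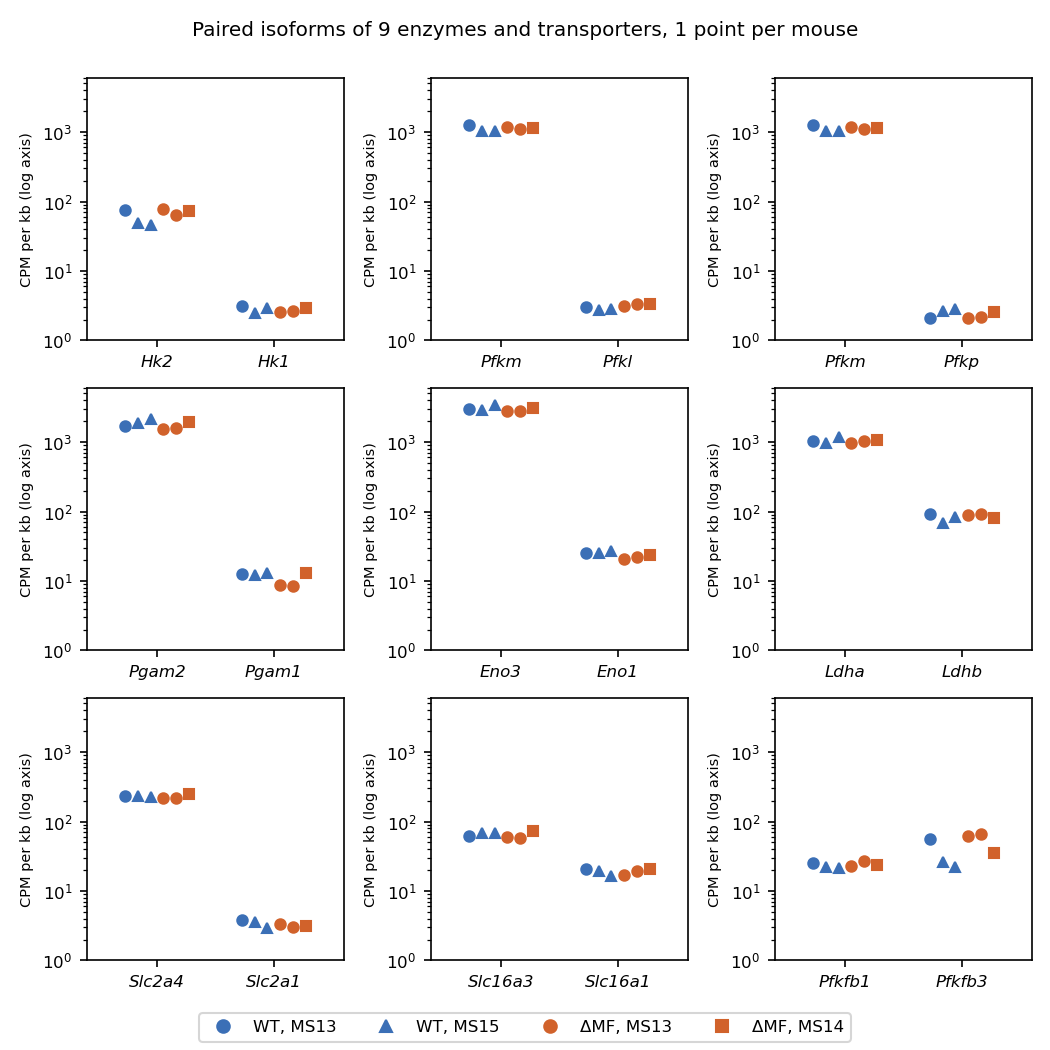
CPM per kilobase of transcript on a log axis for the 9 isoform pairs, with 1 point per mouse (blue Baf155WT, orange Baf155ΔMF, shapes for title prefixes). Distances within a panel show the pair's ratio. Per kilobase in Baf155WT muscle they run from 438-fold for *Pfkm* over *Pfkp* to 0.715 for *Pfkfb1* over *Pfkfb3*, and the genotypes overlap in every gene shown other than *Pfkl* and *Eno1*.

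A second list of 66 genes from the same pathways was read from the same comparison. After the filter 57 were tested, and the 9 left out, among them *Hk3* and the liver genes *Pklr* and *Gys2*, had at most 1.91 CPM in any mouse. None of the 57 passed an adjusted p of 0.05 (smallest 0.601, edgeR, and none with DESeq2 or limma-voom), and the median log2 fold change was -0.018. At an unadjusted p under 0.05, 4 were higher and 1 was lower, where 3.35% and 4.6% of all genes tested were. The higher ones were the glucose transporter *Slc2a3* (log2 fold change 0.26), *Pgm2l1*, which makes glucose bisphosphate (0.35), and the pyruvate dehydrogenase phosphatases *Pdp1* (0.25) and *Pdp2* (0.43), which switch that complex on. The lower one was *Ppp1r3b*, another glycogen-targeting subunit (-0.71), at 1.65, 2.14 and 1.87 CPM against 1.49, 0.935 and 1.05 CPM. *Pdp1* was at 178, 148 and 150 CPM against 188, 193 and 185 CPM, and *Slc2a3* was at 15.25, 14.92 and 14.99 CPM against 19.2, 16.9 and 18.0 CPM, without overlap in either gene. In *Pgm2l1*, at 39.8, 28.1 and 25.5 CPM against 41.0, 40.9 and 36.6 CPM, Baf155WT mouse 1 lay within the Baf155ΔMF range. Within MS13, values were 0.04 on the log2 scale for *Pgm2l1*, 0.097 for *Pdp1*, 0.24 for *Slc2a3*, 0.39 for *Pdp2* and -0.44 for *Ppp1r3b*.

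Markers of fibre type and of other cell types were set beside these values. Of 10 fast fibre genes 1 had an unadjusted p under 0.05, the fast myosin *Myh1* (log2 fold change 0.49), and of 10 slow and oxidative fibre genes 1 did, the oxidative myosin *Myh2* (0.38). The median log2 fold change was -0.13 for the fast list and -0.0041 for the slow list. The summed fast list was between 132863 and 136244 CPM in Baf155WT and between 123174 and 133833 CPM in Baf155ΔMF muscle. The summed slow list was between 3570 and 4855 CPM against 4615 and 5176 CPM, with Baf155WT mouse 1 at 4855. All 6 leukocyte markers were lower at an unadjusted p under 0.05, with a sum between 138 and 377 CPM in Baf155WT and between 126 and 194 CPM in Baf155ΔMF muscle, and the value of 138 was that of Baf155WT mouse 1. Of the adipocyte markers 2 of 6 and of the red cell markers 3 of 5 were lower, and 2 of 5 endothelial markers were higher. Over all lists 16 of the 59 markers tested had an unadjusted p under 0.05 (edgeR). At that limit 4.6% of all genes tested were lower and 3.35% were higher. The adipocyte sum was between 40.2 and 82.9 CPM against 34.3 and 49.8 CPM, the red cell sum between 622 and 1227 CPM against 371 and 805 CPM, and the endothelial sum between 206 and 266 CPM against 265 and 289 CPM. In each of these sums Baf155WT mouse 1 lay within the Baf155ΔMF range, at 40.2, 777 and 266 CPM. Of the fibroblast markers 1 of 5 was lower (*Dcn*, -0.43), with a list median of 0.16 and a sum between 1861 and 2192 CPM against 1641 and 2579 CPM, and none of the satellite cell and Schwann cell markers tested had an unadjusted p under 0.05. No marker of any list had an adjusted p under 0.05, and none was at 0 in every mouse. The part of these differences in the values of *Eno1*, *Pgam1*, *Hk1*, *Pfkl* and the other isoforms that are not specific to muscle was not tested.

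Counting could also touch some members. The deposited estimates were whole numbers in every mouse for 34 of the 39 and not for *Gpi1*, *Pfkp*, *Pdha1*, *Phkg1* and *Eno1*. GENCODE M21 on GRCm38 places a gene on the opposite strand over part of 20 members, a gene on the same strand over part of 9, and named pseudogenes elsewhere for 6, *Gapdh*, *Pgk1*, *Pgam1*, *Ldha*, *Aldoa* and *Mpc1*. The library kit marks strand, but whether the counting used it is not given in the sources used here. Positions on GRCm38 of the genes on which the results turn are chr6:82725025-82774454 for *Hk2*, chr2:11471433-11554077 for *Pfkfb3*, chr7:45434844-45456619 for *Gys1*, chr19:36731731-36736653 for *Ppp1r3c* and chr4:150236721-150248879 for *Eno1*. *Hk2*, *Pfkfb3*, *Ppp1r3c* and *Gys1* are therefore on 4 different chromosomes, and 3 of them overlap other genes. *Gys1* overlaps *Ruvbl2* and *Hk2* overlaps *Gm17034* on the other strand, and *Pfkfb3* overlaps *Gm10851* on the other strand and *Gm37975* on its own strand.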

How the data were processed

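Total RNA from whole hind limb muscle was sequenced by the authors from TruSeq Stranded Total RNA libraries, with 1 library per mouse. The authors deposited expected counts (estimated reads per gene, not normalized) for 20632 genes by symbol. The submitters' processing notes name TopHat2 2.1.1, Bowtie2 2.2.7, cutadapt 1.10, CASAVA 1.8.2, RSEM 1.2.30 and limma, and the builds mm10 and GRCm38. The annotation is not given in the sources used here. Estimates that were not whole (2919 genes in at least 1 mouse) were rounded.

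Counts were analysed in R 4.3.3 with edgeR 4.0.16. The filterByExpr function (minimum count 10, minimum total 15) kept 12116 genes, libraries were scaled by TMM, and genotypes were compared by the quasi-likelihood F test without covariates (common biological coefficient of variation 0.111). P-values were adjusted by Benjamini-Hochberg over all genes tested. Isoform ratios (pseudocount 1) and the summed share were tested by exact two-sided permutation of the mice (20 assignments). Principal components used log2 CPM with a prior count of 2. Levels per kilobase used the longest principal transcript of GENCODE M21 on GRCm38, and promoters came from RefSeq on GRCm38.p6. The same fit was also run on counts simulated from the means and dispersion of these data. Alternatives used DESeq2 1.42.0, limma 3.58.1, other scalings, filters and covariates.

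The members and all gene lists were chosen with earlier results of these data known. Values per mouse were printed for members of the isoform pairs, with an unadjusted p under 0.05, without overlap, with the highest level or with the widest spread in Baf155WT mice, and for some others that complete a role.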

Additional observations from a re-analysis of the deposited data

How the results depend on the processing

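No paired analysis was possible because the labels give no replicate numbers that both genotypes share (the mouse numbers in the titles sit under different prefixes). Genes called at an adjusted p under 0.05 numbered 3 in edgeR, 22 with DESeq2, 5 with limma-voom, 17 without a filter on low counts, 5 with prefix as covariate and 0 to 955 when 1 mouse was left out. The prefix covariate set MS13 against MS14 and MS15 together, so differences between MS14 and MS15 stayed with genotype. The count of 0 was reached without Baf155WT mouse 2 and without Baf155ΔMF mouse 2, where edgeR gave 451 and 568 genes at an unadjusted p under 0.05. No member was called under any alternative other than the one without Baf155WT mouse 1, so the range was 0 to 4. Members at an unadjusted p under 0.05 numbered 2, and 4 with cyclic loess, 5 without a filter, 1 with a robust fit, 1 with the prefix, 1 each with the length or the GC trend removed, and 0 to 12 when 1 mouse was left out. Over all genes these shares were 7.95%, 7.69%, 7.86%, 7.24%, 6.38%, 7.83%, 8.18% and 3.69% to 23.8%. The median member log2 fold change was -0.095 with library size only, where the median of all genes was -0.064. Members without overlap numbered 5 with library size only and 3 to 16 with 1 mouse left out, with 16 (41.0%) without Baf155WT mouse 1 (39.2% of all genes) and also without Baf155ΔMF mouse 3 (28.8%).

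In alternatives with a test, directions turned in 14 of the 39 members (32 of 702 values, none larger than 0.0765 and none with an adjusted p under 0.05). With library size only, *Pfkm* was at -0.015, *Slc16a1* at -0.029 and *Fbp2* at -0.016. With the length trend removed, *Gapdh* was at 0.024, *Ldha* at 0.0021, *Slc2a4* at 0.018, *Slc16a1* at -0.011 and *Mpc2* at 0.023. With the prefix covariate (MS13 against the other prefixes), *Slc2a4* was at 0.020 and *Slc16a3* at 0.017. With the GC trend removed *Slc2a4* was at 0.026 and *Slc16a1* at -0.015. With 1 mouse left out the ranges were -0.0020 to 0.14 for *Pfkm*, -0.15 to 0.0011 for *Tpi1*, -0.12 to 0.015 for *Gapdh*, -0.096 to 0.028 for *Ldha*, -0.0095 to 0.22 for *Ldhb*, -0.056 to 0.027 for *Slc2a4*, -0.064 to 0.11 for *Slc16a1*, -0.14 to 0.011 for *Slc16a3*, -0.064 to 0.076 for *Phka1*, -0.097 to 0.025 for *Phkb*, -0.032 to 0.17 for *Fbp2*, -0.11 to 0.076 for *Gpd2*, -0.0073 to 0.12 for *Mpc1* and -0.14 to 0.011 for *Mpc2*. The other 670 values kept their direction, and 4 of them passed the threshold. The cause was not tested. Between the MS13 mice alone, without a test, 14 members turned, *Hk2*, *Gys1* and *Ppp1r3c* among them.

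Among isoform ratios, the MS13 mice alone gave -0.16 for *Pfkm*/*Pfkp*, 0.43 for *Pgam2*/*Pgam1* and 0.13 for *Slc16a3*/*Slc16a1*, and the last ranged from -0.21 to 0.036 with 1 mouse left out. The MS13 mice alone allow no test. Overlap counts were recomputed for scalings and for left-out mice only. Depth and 3 mice per genotype limit what could be detected, and a p that misses the threshold does not show equal levels.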
